A study of Mus musculus with 6 samples.

Results

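The cells described here were picked by 4 marker genes of nonclassical monocytes within Lin- haematopoietic stem and progenitor cells of mice. Among 24307 cells with at least 500 detected genes 844 were found, and some of them were of other kinds, as described below. A cell was a member when the 4 genes Ear2, Fcgr4, Ace and Gngt2 together gave at least 3 UMIs (unique molecular identifiers, each counting 1 captured mRNA). Members were further required to hold Elane at under 0.5% of their UMIs, at most 1 UMI of Siglech, at most 4 of Prg2, at most 2 of Ms4a2, Fcer1a, Cd200r3 and Cyp11a1 together, and 0 of Cd3d, Cd3e and Cd3g. These conditions set aside granulocyte progenitors, plasmacytoid dendritic cells, eosinophils, basophils and mast cells, and T cells. The values of those genes chose the cells and are given below as a description only. Samples came from 3 mice with the genotype Stag2 KO (KO1, KO2 and KO3) and 3 mice with Stag2 wt (WT1, WT2 and WT3), 1 library each. The sources used here do not give the allele or the Cre driver behind the knockout, nor the age, sex or treatment of the mice. Libraries were made with 10x Chromium 3' chemistry, which counts mRNA at its polyadenylated end. Sample titles carry a code that starts with XA for WT1 and all 3 knockouts and with other letters for WT2 and WT3; the labels do not say what it marks.

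Nonclassical monocytes are the Ly6C-low monocytes that crawl along the inner wall of blood vessels. They arise largely from classical, Ly6C-high monocytes, and the nuclear receptor Nr4a1 with the factors Cebpb, Klf2 and Pou2f2 is required for or linked to that conversion. STAG2 belongs to cohesin, a ring-shaped complex that links sister chromatids and forms loops of chromatin, and the related subunit STAG1 can replace it.

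The bases before the start of 6 genes are printed to show the control regions of genes that the results turn on: Ear2 and Fcgr4, which chose the cells, Nr4a1 and Fcgr2b, which were lower in the knockout, and Capg and Klrb1f, which were higher. Each is the 250 bases before the start site in RefSeq (GRCm38.p6), written 5′ to 3′ on the gene's strand. No entry was found for Gngt2, Itgal or Stag2. Capitals mark matches, on either strand, to AGGAAGT (bound by ETS factors such as PU.1), TTGCNNAA (C/EBP), AAAGGTCA (NR4A), CCCCACCC (KLF) or ATGCAAAT (octamer, bound by POU2F2).
Ear2: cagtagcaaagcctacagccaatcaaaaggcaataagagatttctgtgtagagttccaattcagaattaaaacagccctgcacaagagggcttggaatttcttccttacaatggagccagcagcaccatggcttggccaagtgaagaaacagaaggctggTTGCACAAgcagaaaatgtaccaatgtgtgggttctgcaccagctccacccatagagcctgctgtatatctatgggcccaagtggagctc
Fcgr4: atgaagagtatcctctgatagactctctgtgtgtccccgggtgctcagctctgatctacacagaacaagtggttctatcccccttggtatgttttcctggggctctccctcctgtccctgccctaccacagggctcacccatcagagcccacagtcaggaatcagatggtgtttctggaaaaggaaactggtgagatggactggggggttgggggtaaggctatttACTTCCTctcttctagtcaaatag
Nr4a1: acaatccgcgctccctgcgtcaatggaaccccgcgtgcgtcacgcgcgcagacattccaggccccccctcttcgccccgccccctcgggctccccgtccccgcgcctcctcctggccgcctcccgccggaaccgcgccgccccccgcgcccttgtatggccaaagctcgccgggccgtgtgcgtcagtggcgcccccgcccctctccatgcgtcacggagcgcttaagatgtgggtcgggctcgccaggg
Fcgr2b: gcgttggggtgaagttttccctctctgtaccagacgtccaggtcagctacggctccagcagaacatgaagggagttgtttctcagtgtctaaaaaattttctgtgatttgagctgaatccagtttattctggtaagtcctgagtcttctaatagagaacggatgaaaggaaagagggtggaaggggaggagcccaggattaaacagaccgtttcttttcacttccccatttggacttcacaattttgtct
Capg: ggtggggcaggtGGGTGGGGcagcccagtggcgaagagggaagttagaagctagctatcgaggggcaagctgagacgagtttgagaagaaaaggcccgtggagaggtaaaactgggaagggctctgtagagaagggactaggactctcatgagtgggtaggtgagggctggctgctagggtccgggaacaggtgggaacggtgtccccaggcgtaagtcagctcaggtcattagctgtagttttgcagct
Klrb1f: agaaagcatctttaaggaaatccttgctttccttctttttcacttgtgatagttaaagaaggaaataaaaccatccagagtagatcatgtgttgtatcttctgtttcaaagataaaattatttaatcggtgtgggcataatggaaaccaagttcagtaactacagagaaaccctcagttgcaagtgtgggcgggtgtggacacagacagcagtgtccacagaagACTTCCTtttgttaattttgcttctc
The windows lie at chr14:44102404-44102653 (Ear2, plus strand), chr1:171018676-171018925 (Fcgr4, plus), chr15:101266596-101266845 (Nr4a1, plus), chr1:170976072-170976321 (Fcgr2b, minus), chr6:72549397-72549646 (Capg, plus) and chr6:129045651-129045900 (Klrb1f, plus). The ETS letters stood 24 to 18 bases before the start of Fcgr4 and 26 to 20 bases before that of Klrb1f. The C/EBP letters stood 90 to 83 bases before the start of Ear2, and the KLF letters 238 to 231 bases before that of Capg. The windows of Nr4a1 and Fcgr2b held none of the 5 motifs. Of 32851 listed promoters cut to the same window, 7.69% held the ETS letters, 9.56% C/EBP, 9.05% KLF, 1.34% NR4A and 1.60% the octamer.

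Summed over all members, further genes of nonclassical monocytes were high beside the genes that chose the cells. The values below are CPM, counts per 1000000 of the UMIs summed over a set of cells in a sample, averaged over the 6 samples. Ear2, an eosinophil-type ribonuclease, stood at 930 CPM in members and 3.68 CPM in the other cells. Gngt2, a G protein subunit, stood at 1471 against 20.8 CPM, Fcgr4, an activating receptor for IgG, at 268 against 1.51 CPM, and Ace, angiotensin-converting enzyme, at 173 against 0.49 CPM. Members held 59.1% to 89.1% of each library's Ear2 UMIs, although they were at most 5.89% of its cells. Ear2 has near-identical relatives between which reads can be shared; Ear1 had 3 UMIs in all members and Ear6 had 0.

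Among genes the rule did not use, the C-type lectins Clec4a3 (466 against 3.45 CPM) and Clec4a1 (357 against 3.03 CPM) and the fatty acid carrier Fabp4 (279 against 1.20 CPM) had the largest folds, taken after adding 5 CPM to both levels. Nr4a1 was at 133 against 1.46 CPM, the fractalkine receptor Cx3cr1 at 303 against 17.5 CPM and the growth factor receptor Csf1r at 346 against 16.1 CPM. Ly6c2, a marker of classical monocytes, was at 632 CPM in members and 646 CPM in other cells. These differences follow from how the cells were found and were not tested.

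The rule drew in cells of more than 1 kind. The deposited tables give each cell a cluster number, and in each sample 1 cluster held most members: 42, 39 and 33 of the 67, 63 and 46 members in KO1, KO2 and KO3, and 78, 238 and 281 of the 91, 260 and 317 in WT1, WT2 and WT3. These 711 cells are called core members below, a set chosen after the data were seen. The other members held more UMIs per cell, with sample medians of 3447 to 9301.5 against 1403 to 3366 in core members. They were 13 to 25 cells in each knockout library but gave 67.5%, 50.3% and 57.0% of member UMIs in the knockouts (KO1, KO2, KO3), against 40.5%, 28.3% and 28.7% in the wild types (WT1, WT2, WT3). In KO3 the cluster was broad, since core members were 33 of its 290 cells (11.4%), whereas they were 44.8% to 92.2% of it in the other 5 libraries.

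The 22 genes of a nonclassical monocyte list summed to 4209 to 8438 CPM in knockout and 9438 to 10158 CPM in wild type core members. Outside that cluster the sum was 987 to 2828 CPM. A list of 10 B and plasma cell genes summed to 2786 to 3265 CPM in wild type members outside the cluster and 515 to 747 CPM in knockout ones. In core members the B cell list stood at 661 to 901 CPM in the knockout and 824 to 1568 CPM in the wild type. Progenitor genes were also concentrated outside the cluster, where Mpo, the granule enzyme of granulocyte progenitors, stood at 378 to 1689 CPM against 41.5 to 122 CPM in core members. A list of 11 conventional dendritic cell genes summed there to 4314, 949 and 182 CPM in the knockouts (KO1, KO2, KO3). In the wild types (WT1, WT2, WT3) it summed to 244, 866 and 2546 CPM there, and in core members to 63.1 to 789 CPM. The macrophage genes C1qa, C1qb and C1qc had 1 UMI each in all core members, and the eosinophil genes Epx, Prg3, Ccr3 and Siglecf had 1, 2, 1 and 0. The 11 genes of a macrophage list, which include Adgre1, summed to 51.3 to 81.9 CPM in knockout and 160 to 193 CPM in wild type core members. In the other cells that sum was 12.6 to 20.7 CPM. Adgre1 gave most of the sum in core members. Because the mixture differed by genotype, changes are given for core members beside those over all members where a gene was tested in both.

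**Figure D1:**
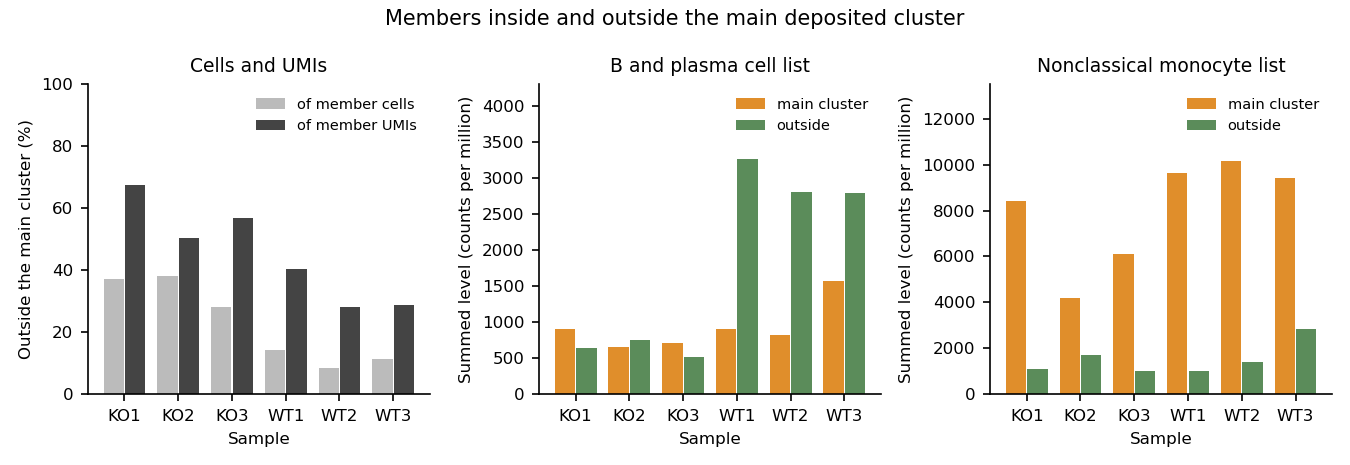
Left, percentage of member cells (light bars) and of member UMIs (dark bars) outside the main deposited cluster in each sample. Middle and right, summed level in CPM of the B and plasma cell list and the nonclassical monocyte list, in members inside (orange) and outside (green) that cluster. The B cell list is high in the cells outside the cluster of the 3 wild type samples, and the nonclassical list is high inside the cluster in all 6.

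Around the threshold, 49, 43 and 52 cells of the knockouts (KO1, KO2, KO3) and 18, 41 and 54 of the wild types (WT1, WT2, WT3) met every other condition with 2 marker UMIs, and 11, 19, 9, 12, 13 and 26 cells in the same order had exactly 3. Libraries shared 11 to 48 cell barcodes in pairs, and no member barcode was shared. Libraries held 16155065 to 36248233 UMIs, with median UMIs per cell of 5458 to 5956 in the knockout and 3447 to 4613 in the wild type. Members held fewer UMIs than the other cells, with medians of 2395, 3811 and 2508 UMIs in the knockouts (KO1, KO2, KO3) and 2142, 2123.5 and 1440 in the wild types (WT1, WT2, WT3).

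Nonclassical monocyte-like cells were a smaller share of the knockout libraries. They made up 1.50% of cells in KO1 (95% exact binomial interval 1.16 to 1.90), 2.59% in KO2 (1.996 to 3.30) and 1.23% in KO3 (0.90 to 1.63). In the wild type they made up 3.70% in WT1 (2.99 to 4.52), 5.89% in WT2 (5.21 to 6.63) and 4.68% in WT3 (4.19 to 5.21). Each wild type sample was above each knockout sample. The means were 1.77% ± 0.72 (SD, n = 3) and 4.76% ± 1.10 (SD, n = 3), a wild type to knockout ratio of 2.69, with a 2-sided exact permutation p = 0.1, the smallest that 3 against 3 samples allow. Among the libraries with the XA code alone, WT1 at 3.70% was above the 3 knockout samples.

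**Figure D2:**
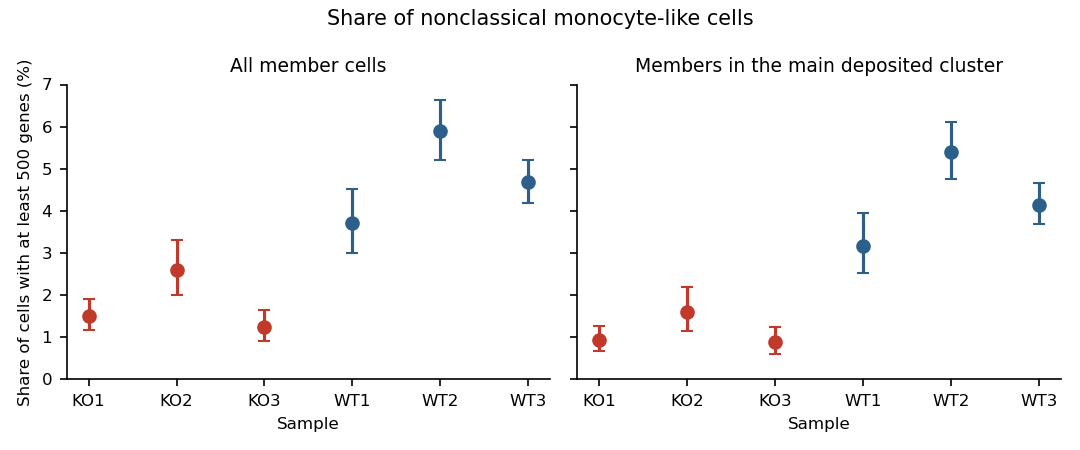
Share of cells that were nonclassical monocyte-like cells in each sample, for all members (left) and for members in the main deposited cluster (right). Points are shares in percent of cells with at least 500 genes, bars are 95% exact binomial intervals, and the 3 knockout samples (red) lie below the 3 wild type samples (blue) in both panels.

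For core members alone the shares were 0.94%, 1.60% and 0.88% in the knockouts (KO1, KO2, KO3) and 3.17%, 5.39% and 4.15% in the wild types (WT1, WT2, WT3). The size of the gap depended on the marker threshold. With 2 marker UMIs the shares were 2.59%, 4.36% and 2.61% in the knockout and 4.43%, 6.82% and 5.48% in the wild type. The wild type to knockout ratio was then 1.75, against 2.69 at 3 UMIs and 3.44 at 5 UMIs. With 2 UMIs of Fcgr4, Ace and Gngt2 the ratio was 1.94. Deeper cells pass a UMI threshold more easily, so cells were also thinned to 1 depth. At 1000 UMIs per cell the shares were 0.85%, 1.11% and 0.75% in the knockout and 3.06%, 4.81% and 3.72% in the wild type, again with no overlap. At 2000 UMIs, a depth that many members do not reach, WT3 fell to 0.83%, inside the knockout range of 0.74% to 1.12%, and the exact permutation p was 0.2. Of members and classical monocyte-like comparison cells together, members were 69.1%, 75.0% and 75.4% in the knockout and 85.8%, 93.2% and 91.9% in the wild type. A share of cells does not give a number of cells, which was not measured.

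The targeted gene was low but present in knockout members. Stag2 stood at 43.3, 31.9 and 22.6 CPM in the knockouts (KO1, KO2, KO3) and at 91.8, 62.2 and 68.9 CPM in the wild types (WT1, WT2, WT3), with no overlap (log2 change -1.08, SE 0.32, edgeR adjusted p = 0.028). The call was lost without KO2, KO3 or WT3, in DESeq2, with the title code as a covariate or XA samples alone, at 5 marker UMIs and with doublet scores (adjusted p up to 0.34), and Stag2 was too low to be tested in core members. The counts read the end of the transcript, and the labels do not say which exons were deleted. Stag1 did not pass the test (log2 change -0.30, SE 0.35, edgeR adjusted p = 0.67).

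Over all members, edgeR's quasi-likelihood test with Benjamini-Hochberg adjustment called 312 of 3521 genes at 0.05 (8.86%), 108 higher in the knockout (3.07%) and 204 lower (5.79%). Over core members it called 97 of 2040 genes (4.75%), 46 higher (2.25%) and 51 lower (2.5%). Of the 97 core calls, 75 were also called in the same direction over all members, which is 77.3% of the core calls and 24.0% of the calls over all members. Log2 changes are knockout against wild type after TMM scaling; their median over all tested genes was 0.02 for all members and 0.00 for core members. DESeq2 called 150 and 57 genes. A fit with the title code as a covariate sets the knockouts against WT1 alone, since WT2 and WT3 carry other letters. With the title code as a covariate 49 genes were called over all members and 10 over core members. Among those 10 were Fcgr2b, Pltp, Hpgd, Gm2a and Ccl6, which fell, and S100a6, Plac8, Ly6c2 and Plp2, which rose; every other core call named below was lost with the covariate. With members thinned to 2000 UMIs, 2 of 949 tested genes were called over all members. Only 151 of the 312 calls were tested there. Without KO1, WT2 or WT3 the calls over all members were 176, 144 and 178, and without KO1, KO2 or WT3 those over core members were 158, 56 and 56.

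**Figure D3:**
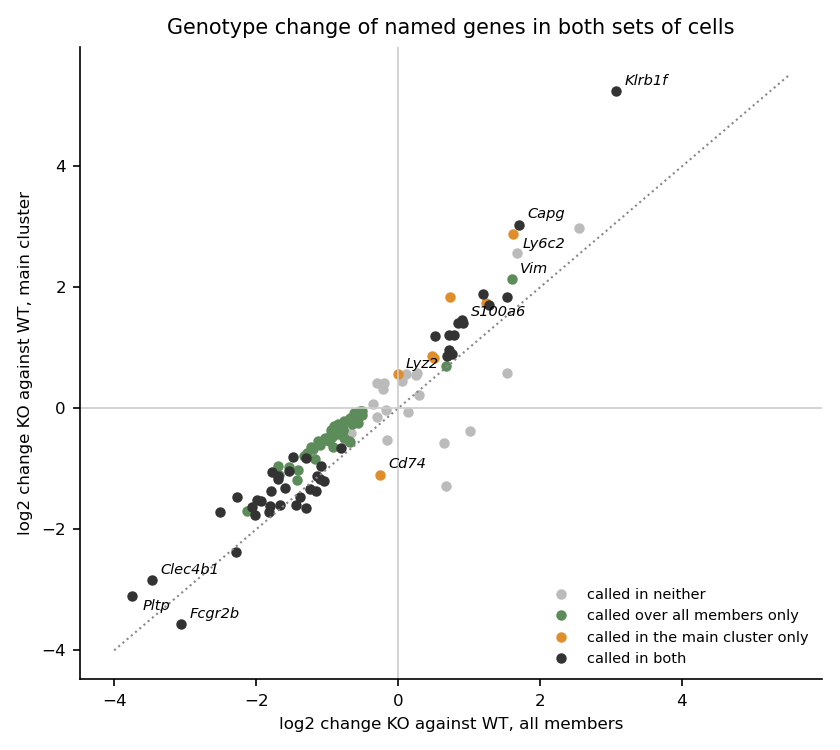
Log2 change between knockout and wild type for the named genes tested in both sets of cells, over all members (horizontal) and in the main deposited cluster (vertical). Colours give where the edgeR adjusted p was under 0.05, and the dotted line marks equal change; Klrb1f reaches 3.08 and 5.25, and Pltp -3.74 and -3.10.

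Nr4a1 and Pou2f2, factors of the nonclassical programme, fell in both sets of cells. Nr4a1 was at 76.6, 66.9 and 58.8 CPM in the knockouts (KO1, KO2, KO3) and at 208, 188 and 200 CPM in the wild types (WT1, WT2, WT3) (log2 change -1.53, SE 0.22, edgeR adjusted p = 4.0e-05). In core members it was at 215, 96.2 and 105 CPM against 344, 258 and 254 CPM (log2 change -1.04, SE 0.27, edgeR adjusted p = 0.025). The genotypes did not overlap in either set. The core call was lost without KO2, KO3, WT1 or WT3 and in DESeq2 (adjusted p up to 0.16). The call over all members was lost at 5 marker UMIs, with cells thinned to 2000 UMIs and in members with no UMI of Mki67, Top2a, Mpo or Flt3. Pou2f2, a POU-domain factor, was at 502, 289 and 347 CPM in knockout and 753, 735 and 705 CPM in wild type core members. It fell by 1.09 on the log2 scale over all members (SE 0.17) and by 0.96 over core members (SE 0.19), with edgeR adjusted p of 9.4e-05 and 0.003, and the core call held without each library in turn.

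Cebpb and Klf2 fell over all members, by log2 1.04 (SE 0.18) and 1.13 (SE 0.17), at edgeR adjusted p of 0.00046 and 7.2e-05. In core members their values were -0.52 (SE 0.22) and -0.53 (SE 0.20), which did not pass (edgeR adjusted p = 0.21 and 0.14). Spi1, which encodes PU.1, was at 503 to 621 CPM in knockout and 607 to 658 CPM in wild type members and did not pass in either set (edgeR adjusted p = 0.58 and 0.97). Irf8, which directs monocyte and dendritic cell fate, rose over all members (log2 change 0.67, SE 0.16, edgeR adjusted p = 0.0084), but not in core members (0.69, edgeR adjusted p = 0.30), where KO2 at 167 CPM lay below the wild type range of 178 to 261 CPM. Cebpd, a C/EBP factor, was at 154, 244 and 147 CPM in knockout core members and 67.6 to 77.1 CPM in wild type ones (log2 change 1.46, SE 0.29, edgeR adjusted p = 0.0022), a call lost without KO2. Over all members Cebpd rose by 0.90 (edgeR adjusted p = 0.037), a call lost without KO2, WT2 or WT3. Of 20 tested genes in the transcription factor list, 2 rose and 5 fell over all members (median log2 change -0.32), and of 17 tested in core members 1 rose and 2 fell (median -0.21). Over all genes tested, 3.07% rose and 5.79% fell over all members, and 2.25% and 2.5% in core members.

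Of the 22 genes in the nonclassical monocyte list 18 were tested. Over all members 16 fell and 0 rose, with a median log2 change of -1.17, beside 5.79% of all genes called lower. Over core members 6 fell (Cd300ld, Fabp4, Nr4a1, Pou2f2, Itgal and Bcl2a1d) and 0 rose, with a median of -0.65, beside 2.5% of all genes. Of those 6, the core call of Bcl2a1d (-0.81, edgeR adjusted p = 0.027) held in 2 of 9 alternatives and was lost without KO2, WT1, WT2 or WT3. The cells were chosen by Ear2, Fcgr4, Ace and Gngt2, which mark the same cell type, so the list is not independent of how cells were chosen. Cd300ld, a surface receptor of myeloid cells, was at 133, 51.3 and 168 CPM in knockout and 314, 317 and 321 CPM in wild type core members (log2 change -1.52, SE 0.28, edgeR adjusted p = 0.0015), and its change over all members was -1.93 (edgeR adjusted p = 2.7e-06). Cx3cr1 fell over all members (log2 change -0.98, SE 0.18, edgeR adjusted p = 0.00077), while its value in core members was -0.54 (SE 0.19, edgeR adjusted p = 0.11). Csf1r had a log2 change of -0.76 (edgeR adjusted p = 0.0072) over all members and -0.21 (edgeR adjusted p = 0.63) in core members, and Spn, the sialophorin CD43, -0.67 (0.031) and -0.56 (0.30). The 4 genes of the rule were themselves lower in knockout core members, described here without a test: Ear2 at 1219, 731 and 988 CPM against 1910, 1866 and 1916, Gngt2 at 1367 to 2407 against 2408 to 2722, Fcgr4 at 231 to 442 against 503 to 522, and Ace at 83.4 to 338 against 319 to 380, where KO1 lay within the wild type range.

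Among Fc receptors, Fcgr2b and Fcgrt fell in both sets of cells. Fcgr2b, the inhibitory receptor for IgG, had 1, 3 and 0 UMIs in the core members of the knockouts (KO1, KO2, KO3) and 27, 68 and 63 in the wild types (WT1, WT2, WT3), that is 10.2, 19.2 and 0 CPM against 160, 128 and 152 CPM. The genotypes were far apart, with a log2 change of -3.57 (SE 0.50, edgeR adjusted p = 7.9e-05) and -3.06 over all members (SE 0.37, edgeR adjusted p = 4.2e-06). The call held in each of the 17 alternatives in which the gene was tested over all members and in all 9 over core members. Fcgrt, the neonatal Fc receptor that salvages IgG, was at 143, 57.7 and 105 CPM against 255, 239 and 237 CPM (log2 change -1.31, SE 0.28, edgeR adjusted p = 0.0048), a core call lost without KO2; over all members it was at -1.59 (edgeR adjusted p = 0.0001). Fcer1g, the shared signalling chain, fell over all members (log2 change -0.77, SE 0.13, edgeR adjusted p = 0.00028) and was at -0.36 in core members (edgeR adjusted p = 0.15). Of 5 tested genes on the Fc receptor list, 3 fell over all members and 2 over core members, and 0 rose in either. Of all genes 5.79% fell over all members and 2.5% in core members. Among the listed genes that did not pass, 1 over all members and 2 over core members had a positive log2 change.

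Of genes of lipid handling, Pltp, Fabp4 and Plin2 fell in both sets of cells. Pltp, the phospholipid transfer protein, had 1, 5 and 3 UMIs in knockout and 34, 144 and 82 in wild type core members, or 10.2, 32.1 and 31.5 CPM against 202, 271 and 198 CPM. Its log2 change was -3.10 in core members (SE 0.38, edgeR adjusted p = 1.0e-05) and -3.74 over all members (SE 0.38, edgeR adjusted p = 5.5e-07), and the call held in all 9 and all 17 alternatives tested. Hpgd, which breaks down prostaglandins, was at 246, 173 and 210 CPM against 581, 613 and 597 CPM in core members (log2 change -1.52, SE 0.19, edgeR adjusted p = 1.4e-05), and its core call held in all 9 alternatives. Knockout and wild type samples did not overlap for either gene. Fabp4 was at 410, 231 and 179 CPM against 593, 584 and 592 CPM (log2 change -1.11, SE 0.21, edgeR adjusted p = 0.0021), and Plin2, the coat protein of lipid droplets, at 81.9, 44.9 and 52.6 against 142, 239 and 176 CPM (log2 change -1.72, SE 0.33, edgeR adjusted p = 0.0018). Over all members the changes were -1.99 for Hpgd, -1.69 for Fabp4 and -1.82 for Plin2 (edgeR adjusted p = 2.4e-07, 1.2e-06 and 0.0001). Of 11 tested genes on the list of lipid handling and iron, 7 fell and 0 rose over all members (median log2 change -1.33), where 5.79% of all genes fell. Of 9 tested in core members, 3 fell and 0 rose (median -1.03), where 2.5% of all genes fell, with Apoe at -1.11 (edgeR adjusted p = 0.24) and the lipid-sensing receptor Pparg at -1.03 (edgeR adjusted p = 0.079) not passing.

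**Figure D4:**
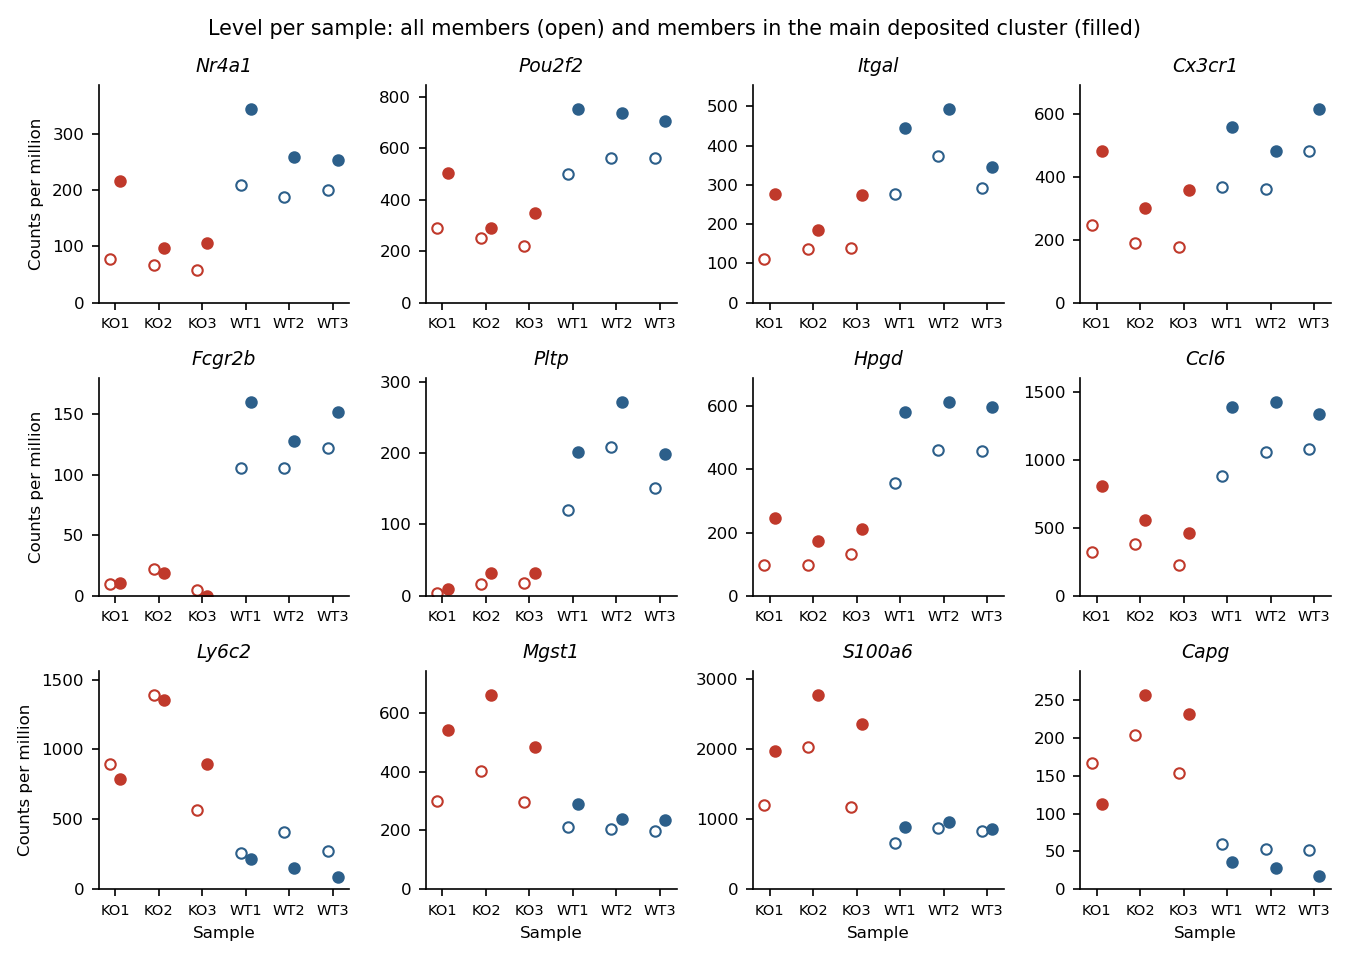
Level of 12 genes in CPM in each sample, over all members (open points) and in the main deposited cluster (filled points), knockout in red and wild type in blue. The 8 genes in the upper rows are lower in the knockout samples, and the 4 in the lowest row are higher in the filled points of the 3 knockout samples.

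Receptors and secreted factors of these cells also differed. Clec4b1, a C-type lectin, had 3, 2 and 1 UMIs in knockout and 16, 75 and 55 in wild type core members (log2 change -2.84, SE 0.46, edgeR adjusted p = 0.00041). Adgre1, the F4/80 antigen, was at 81.9, 44.9 and 52.6 CPM against 160, 185 and 191 CPM (log2 change -1.62, SE 0.31, edgeR adjusted p = 0.0017). The chemokine Ccl6 was at 809, 558 and 463 CPM against 1388, 1429 and 1338 CPM (log2 change -1.17, SE 0.19, edgeR adjusted p = 0.00041), and its core call held in all 9 alternatives. Each of these had no overlap between the genotypes. Over all members Clec4b1 was at -3.47, Adgre1 at -2.06 and Ccl6 at -1.70 (edgeR adjusted p = 4.0e-06, 3.9e-05 and 1.1e-06). The chemokine Ccl9 moved the other way in core members, at 870, 1148 and 652 against 599, 516 and 403 CPM (log2 change 0.87, SE 0.21, edgeR adjusted p = 0.017), a call lost without KO2, WT2 or WT3, and over all members it did not pass (0.47, edgeR adjusted p = 0.11). Of 17 tested cytokine receptors 4 fell over all members, and of 15 in core members 2 fell, Tgfbr1 and Il10rb, and 0 rose in either. Beside these counts, 5.79% of all genes fell over all members and 2.5% in core members. The core call of Tgfbr1 was lost in DESeq2 and without KO2 or WT2, and that of Il10rb (edgeR adjusted p = 0.0497) held in 1 of 9 alternatives, being lost without KO1, KO2, KO3, WT1 or WT2.

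Genes of adhesion and migration were lower or did not pass. Itgal, the LFA-1 chain on which patrolling along vessels depends, was at 277, 186 and 273 CPM in knockout and 445, 494 and 345 CPM in wild type core members (log2 change -0.82, SE 0.21, edgeR adjusted p = 0.02). That core call was lost without KO2, WT1 or WT2 and in DESeq2 (adjusted p up to 0.38), whereas over all members (log2 change -1.30, edgeR adjusted p = 7.7e-05) it was called in 17 of 18 alternatives. S1pr5, the sphingosine receptor used to leave the bone marrow, and Cxcr4, the receptor that retains cells there, both fell over all members, by log2 1.69 (SE 0.29) and 1.42 (SE 0.32), at edgeR adjusted p of 0.00035 and 0.0045. In core members their values were -0.96 and -1.19 (edgeR adjusted p = 0.13 and 0.16). Of 15 tested genes on the adhesion list 5 fell over all members (median log2 change -0.51), and of 13 in core members 1 fell, Itgal (median -0.28); 0 rose in either. Of all genes 5.79% fell over all members and 2.5% in core members.

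Ly6c2 and some other genes of classical monocytes were also higher in knockout core members. Ly6c2 was at 789, 1354 and 894 CPM in the knockouts (KO1, KO2, KO3) and 214, 151 and 84.5 CPM in the wild types (WT1, WT2, WT3), with no overlap (log2 change 2.89, SE 0.34, edgeR adjusted p = 0.0017; called in all 8 alternatives). These UMIs came from 9 of 42, 20 of 39 and 5 of 33 core members of KO1, KO2 and KO3. In WT1, WT2 and WT3 they came from 5 of 78, 15 of 238 and 13 of 281. Reads of Ly6c2 can be shared with its near-identical neighbour Ly6c1. Over all members the genotypes again did not overlap, but the test did not pass (log2 change 1.62, SE 0.39, edgeR adjusted p = 0.068). S100a6, a calcium-binding protein, was at 1976, 2772 and 2366 CPM against 890, 958 and 855 CPM (log2 change 1.42, SE 0.16, edgeR adjusted p = 8.4e-06), and Mgst1, a glutathione transferase, at 543, 661 and 484 against 291, 237 and 237 CPM (log2 change 1.21, SE 0.19, edgeR adjusted p = 0.0003). Over all members S100a6 was at 0.91 and Mgst1 at 0.72 (edgeR adjusted p = 0.025 and 0.01); the first call was lost without WT1 or WT3 and the second without KO2, WT2 or WT3. The chemokine receptor Ccr2 did not follow, at 287, 834 and 221 CPM against 320, 294 and 365 CPM (edgeR adjusted p = 0.70). Plbd1, a lysosomal protein on the classical list, fell (log2 change -1.12, SE 0.26, edgeR adjusted p = 0.0099), a call lost without WT3. Of 10 tested genes on the classical monocyte list 2 rose and 1 fell in core members (median log2 change 0.94), and of 14 over all members 3 rose and 1 fell (median 0.85). Of all genes 2.25% rose and 2.5% fell in core members, and 3.07% and 5.79% over all members.

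Detection of Ly6c2 differed between samples, and a cell with 0 UMIs may still express the gene. With each cell thinned to 1000 UMIs it was detected in 7 of 41 core members of KO1 (17.1%, 95% exact binomial interval 7.15 to 32.1), 16 of 39 of KO2 (41.0%, 25.6 to 57.9) and 4 of 33 of KO3 (12.1%, 3.40 to 28.2). In WT1, WT2 and WT3 it was detected in 4 of 78 (5.13%), 6 of 237 (2.53%) and 8 of 260 (3.08%). Basophil-like cells gave 2.05% to 5.62% at the same depth. The wild type shares lay within that range and the intervals of KO1 and KO2 above it, while the interval of KO3 reached into it. Whether basophil-like cells express the gene was not tested, so their shares are not a measure of background alone. Without thinning the shares were 21.4%, 51.3% and 15.2% in the knockout and 6.41%, 6.30% and 4.63% in the wild type. Median depths were 2193, 3366 and 2367 UMIs against 2062.5, 2102 and 1403. Basophil-like cells, at medians of 2532 to 4439 UMIs, gave 8.21% to 18.6%, a range that holds the share of KO3. All these shares count cells with any UMI of Ly6c2 and do not give the level in those cells.

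Core members with any UMI of Ly6c2, 9, 20 and 5 in the knockouts (KO1, KO2, KO3) and 5, 15 and 13 in the wild types (WT1, WT2, WT3), were then left out. Called genes were 43 of 1454 there (2.96%), 19 higher (1.31%) and 24 lower (1.65%). Of the 51 genes called lower in core members 45 were still tested and all 45 had a negative log2 change, 18 of them called, including Fcgr2b at -4.64 (edgeR adjusted p = 0.00023), Pltp at -2.51 (0.00076), Hpgd at -1.04 (0.0018) and Ccl6 at -1.02 (0.00023). Of the 46 called higher 37 were tested and all 37 stayed positive, 11 of them called, with S100a6 at 1.03 (edgeR adjusted p = 7.5e-05) and Plac8 at 0.77 (0.037). Nr4a1 was at -0.81 (edgeR adjusted p = 0.12) and Pou2f2 at -0.57 (0.073) in those cells and no longer passed. Lgals1 (0.57), Npc2 (0.43), Aif1, Plp2, Prtn3, Fabp4, Fcgrt, Itgal, Lgmn, Il10rb and Bcl2a1d also no longer passed there.

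The gene with the largest rise was Klrb1f, a C-type lectin of the NK receptor complex. Core members of KO1, KO2 and KO3 held 7, 14 and 9 UMIs and those of WT1, WT2 and WT3 held 1, 0 and 1, a level ratio of 47.9 (95% counting interval 12.2 to 414). Over all members it was at 73.3, 131 and 63.3 CPM against 14.1, 12.2 and 6.89 CPM (log2 change 3.08, SE 0.39, edgeR adjusted p = 7.8e-06), called in all 17 alternatives tested. Capg, an actin-capping protein, was at 113, 257 and 231 CPM against 35.6, 28.3 and 16.9 CPM in core members (log2 change 3.04, SE 0.36, edgeR adjusted p = 9.7e-06). Neither gene overlapped between the genotypes. Plp2, a membrane protein, was at 164, 205 and 242 against 17.8, 79.2 and 45.9 CPM (log2 change 1.89, SE 0.33, edgeR adjusted p = 0.001), Lgals1, the lectin galectin-1, at 584, 1097 and 1514 against 380, 279 and 268 CPM (log2 change 1.84, SE 0.30, edgeR adjusted p = 0.0061), and Aif1, an actin-binding protein of macrophages, at 92.2, 122 and 116 against 17.8, 30.2 and 38.6 CPM (log2 change 1.84, SE 0.36, edgeR adjusted p = 0.0021). The calls of Lgals1 and Aif1 were lost without KO2. Over all members Capg was at 1.70, Plp2 at 1.20 and Aif1 at 1.54 (edgeR adjusted p = 2.9e-05, 0.0041 and 0.0019), while Lgals1 did not pass (0.73, edgeR adjusted p = 0.31). Plac8 was at 1505, 1412 and 1125 against 415, 754 and 592 CPM (log2 change 1.19, SE 0.20, edgeR adjusted p = 0.00052), and its call held in all 9 alternatives; over all members it rose by 0.52 (edgeR adjusted p = 0.013), a call lost without KO1, KO2 or WT2. Vim, the intermediate filament vimentin, rose over all members (log2 change 1.60, SE 0.21, edgeR adjusted p = 3.9e-05) and did not pass in core members (2.13, SE 0.50, edgeR adjusted p = 0.095), although its groups did not overlap there.

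Lysosomal genes moved both ways. In core members Gm2a, the ganglioside activator, was at 195, 263 and 242 CPM against 587, 539 and 510 CPM (log2 change -1.17, SE 0.19, edgeR adjusted p = 0.00041; called in all 9 alternatives), and the protease Lgmn fell by 1.46 (SE 0.34, edgeR adjusted p = 0.0099), a call lost without KO2 or WT3. The cholesterol carrier Npc2 rose by 1.22 (SE 0.22, edgeR adjusted p = 0.0015) and lysozyme, Lyz2, by 0.57 (SE 0.12, edgeR adjusted p = 0.0061), a call lost without WT1 or WT2. Over all members Lyz2 had a log2 change of -0.01 (edgeR adjusted p = 0.99), Gm2a -1.10 (0.00032), Lgmn -2.27 (6.1e-05) and Npc2 0.79 (0.017), the last lost without KO2, WT2 or WT3. With 2 higher and 2 lower of 19 tested, the lysosome list had a median of 0.06 in core members, where 2.25% of all genes rose and 2.5% fell.

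MHC class II genes gave no stable picture over all members, where H2-Aa stood at 1162, 296 and 18.1 CPM in the knockouts (KO1, KO2, KO3) and 155, 247 and 322 CPM in the wild types (WT1, WT2, WT3). Of 6 tested genes on that list none was called. In members outside the main cluster the 9 listed genes summed to 9452, 2829 and 468 CPM in the knockout and 1091, 2531 and 6863 CPM in the wild type. In core members the sum was 1041 to 3466 CPM. In core members Cd74, the invariant chain, was the 1 of 5 that fell, at 1096, 1232 and 841 CPM against 1845, 2693 and 2350 CPM (log2 change -1.09, SE 0.18, edgeR adjusted p = 0.00041), against -0.25 over all members (edgeR adjusted p = 0.91). Interferon response genes showed 5 lower and 1 higher of 12 tested over all members, but 1 lower, Ifitm2, of 9 in core members (log2 change -0.66, SE 0.15, edgeR adjusted p = 0.0084; lost without WT3). Of the survival list 4 of 10 fell over all members, Mcl1 and the near-identical copies Bcl2a1a, Bcl2a1b and Bcl2a1d, whose reads can be shared. The calls of Mcl1 and Bcl2a1b held in 9 and 6 of 18 alternatives; both were lost without WT2 or WT3, and that of Bcl2a1b also without KO1 or KO2. In core members 2 of 6 fell, Bcl2a1a (-1.71, edgeR adjusted p = 0.017; lost without KO2 or WT2) and Bcl2a1d, while Mcl1 (-0.31, edgeR adjusted p = 0.51) and Bcl2a1b (-0.42, edgeR adjusted p = 0.68) did not pass. Immediate early genes fell in 5 of 9 cases over all members, including Jund (log2 change -1.10, SE 0.22, edgeR adjusted p = 0.0017), and in 1 of 9, Nr4a1, in core members. Neither the S phase list (12 tested) nor the G2/M list (9 tested) had a called gene over all members. Beside the list counts of this paragraph, 3.07% of all genes rose and 5.79% fell over all members, and 2.25% and 2.5% in core members.

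Some of the largest differences over all members came with genes of other cell types. Vpreb3, a gene of developing B cells, had 0 UMIs in the 3 knockout sets and 40, 116 and 101 in WT1, WT2 and WT3. It was at least 44.6-fold lower in the knockout against a floor of 3 counts over that group. With the cells of highest simulated-doublet score left out its call was lost (edgeR adjusted p = 0.30). Cd79a, the B cell receptor chain, had 2 UMIs in the knockout and 127 in the wild type, a level ratio of 0.030 (95% counting interval 0.0036 to 0.111). Of these UMIs, core members held 18 for Vpreb3 and 17 for Cd79a. Among genes that rose over all members, Bex6, Cd93, Adgrg1, Spint2 and Cst7 were too low to be tested in core members; Adgrg1, a receptor of stem cells, was at 73.3, 41.4 and 63.3 CPM against 38.9, 16.2 and 17.2 CPM over all members and at 0 in the 3 knockout core sets.

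In core members, genes of 2 other cell types differed as well. Mcpt8, a basophil protease, was at 92.2, 141 and 73.6 CPM in the knockout and 320, 241 and 360 CPM in the wild type (log2 change -1.47, SE 0.28, edgeR adjusted p = 0.0017). The 9 basophil and mast cell genes together summed to 7912 to 10152 CPM in the other cells of the knockout libraries and 13876 to 16889 CPM in those of the wild type. Prtn3, a protease of granulocyte progenitors, was at 92.2, 160 and 315 against 23.7, 47.1 and 82.1 CPM (log2 change 1.74, SE 0.43, edgeR adjusted p = 0.035), a call lost without KO2, KO3 or WT2. Over all members Mcpt8 was at -1.39 (edgeR adjusted p = 0.00016), and Prtn3 did not pass (1.23, edgeR adjusted p = 0.28). The 12 neutrophil genes summed to 584 to 2029 CPM in knockout and 148 to 466 CPM in wild type core members, and to 10844 to 13685 and 3250 to 6733 CPM in the other cells. Between the genotypes these levels differed in the same direction in core members and in the other cells. Within the knockouts (KO1, KO2, KO3) the order differed. The neutrophil sum was 584, 860 and 2029 CPM in core members and 13685, 12445 and 10844 CPM in the other cells. The part of free RNA in the members was not tested.

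Classical monocyte-like cells were set beside the members to see whether the genotype changed both in the same way. By the planned rule they were 15 to 30 cells per sample, without the 4 marker genes, with Csf1r and with at least 4 UMIs of Ly6c2, Ccr2, F13a1 and Fn1. The test of the difference between classes called 34 of 2855 genes (1.19%), 16 with a change more positive in members (0.56%) and 18 more negative (0.63%). It called 4, 10, 12 and 6 genes without KO1, KO2, WT2 and WT3, 160 without WT1, and 15 with no replicate block. Dropping the conditions on Mki67, Top2a, Mpo and Flt3 gave 68 to 182 wider comparison cells per sample, and with core members that test called 89 of 6526 genes (1.36%), 58 more positive (0.889%) and 31 more negative (0.475%). With all members it called 170 of 6823 (2.49%). These sets were chosen after the data were seen. Of the 656 wider cells 128 met the planned rule, so the wider set is not one of classical monocyte-like cells alone. Its G2/M list summed to 2636 to 3555 CPM, against 1957 to 2223 CPM in the other cells. Within the wider cells alone 129 of 6526 genes were called between genotypes (1.98%). Capg rose in core members and had a log2 change of 0.02 in the wider cells (edgeR adjusted p = 0.99), a difference of 2.91 (SE 0.34, edgeR adjusted p = 1.3e-12). Lgals1 (2.19, SE 0.20), Plac8 (1.46, SE 0.18) and S100a6 (1.33, SE 0.18) differed in the same direction. Pou2f2 (-1.52, SE 0.24) and Smc6, a subunit of a cohesin-related complex (-1.23, SE 0.25), fell in core members against 0.54 and -0.12 in the wider cells. For Fcgr2b the fall was present in both sets of cells, at -1.42 in the wider cells (SE 0.29, edgeR adjusted p = 0.0014), and the difference of -2.15 did not pass (edgeR adjusted p = 0.13).

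**Figure D5:**
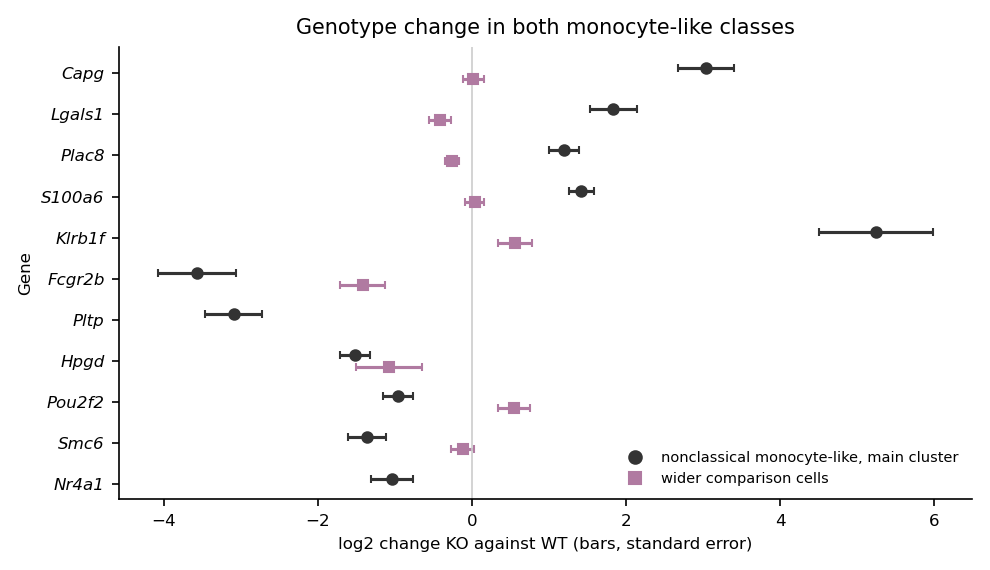
Log2 change between knockout and wild type, with its standard error, in core members (black circles) and in the wider comparison cells (purple squares). Pltp and Nr4a1 were too low to be tested in the comparison cells; Capg, at 3.04 and 0.02, is high in core members and near 0 in the comparison cells.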

How the data were processed

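The authors deposited UMI counts per gene and cell, with a cluster number for each cell, for 6 libraries made with version 2 of the 10x Chromium 3' chemistry, per the labels' protocols. The sources used here name no aligner, counter or genome build. Members and gene lists were chosen with earlier results of these data known. Samples were grouped by the genotype characteristic in the labels. Libraries held 16155065 to 36248233 UMIs, and member cells 221209 to 739561 per sample; intervals cover counting error only.

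Counts were summed over member cells per sample and tested with edgeR 4.0.16 in R 4.3.3 (TMM, filterByExpr, robust quasi-likelihood fit, Benjamini-Hochberg at 0.05), with DESeq2 1.42.0 as an alternative. The labels give 3 mice per genotype, 1 library each. The class test kept the sample as a block. Shares were compared by an exact permutation test. No cell was removed as a doublet; leaving out the highest simulated-doublet scores, 0.8% per 1000 cells, was an alternative that removed 47 to 367 cells per sample and 1 to 19 members. Sequences are from RefSeq, GRCm38.p6.

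Named genes were Stag2, Stag1, the genes of the rule, 12 monocyte genes, the 12 largest non-overlapping calls in each direction at 30 CPM or more, up to 4 genes per list by p, 20 genes by fold against other cells and 5 per direction from the class test. Cd74, Pparg and the split into core members, the wider comparison cells and Ly6c2 cells were chosen after values were seen. The text prints part of the genes this rule names; 1 gene is not reported here and was left out of the lists. On simulated counts the test over all members recovered 56.25% of genes changed by 1 and 96.67% of those changed by 2 on the log2 scale among 3367 genes, and 2.759% of its calls were false. Over core members these were 73.91% and 97.8% among 1904 genes with 9.77% false, and for the class test 4.348% and 36.49% among 2928 genes.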

Additional observations from a re-analysis of the deposited data

Results flagged for a closer look

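The following genes had a genotype change that differed between the members and the comparison cells by edgeR's test of class by genotype. The wider comparison cells were not classical monocyte-like cells alone. Each value is the log2 change in members minus that in comparison cells. Over all members against the comparison cells of the planned rule, the difference was -0.98 for B2m and -0.70 for H2-D1, both of MHC class I, -0.74 for Fcer1g, -1.30 for Lst1 and -1.58 for Ypel3. It was 1.10 for Plac8, 0.86 for Tmsb10, 1.44 for Vim and 0.66 for Actg1, the last 3 being cytoskeletal genes, and 2.64 for Rsl1d1. For core members against the wider comparison cells, the difference was -1.52 for Pou2f2, -1.23 for Smc6, -1.32 for Pglyrp1, a peptidoglycan-binding protein, -0.98 for Cybb, the catalytic chain of the phagocyte oxidase, and -1.30 for Clec2i. It was 2.19 for Lgals1, 2.91 for Capg, 1.46 for Plac8 and 1.33 for S100a6.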

How the results depend on the processing

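The share of nonclassical monocyte-like cells was lower in the knockout under all alternatives run, with a difference of -3.51 to -2.42 percentage points when 1 library was left out and -1.37 at 2000 UMIs per cell. The wild type to knockout ratio was 1.75 at 2 marker UMIs and 3.44 at 5. Against 312 calls over all members, DESeq2 gave 150, the title code as a covariate 49, the XA samples alone 63, a threshold of 5 marker UMIs 89, 2 marker UMIs 534, 2 UMIs of Fcgr4, Ace and Gngt2 534, thinning to 2000 UMIs 2, members with no Mki67, Top2a, Mpo or Flt3 UMI 91 and the main deposited cluster 97. The thinned fit tested 949 genes, against 3521 in the fit over all members. Leaving out 1 library gave 144 to 424. Against 97 calls over core members, the covariate gave 10, DESeq2 57, cells with no Ly6c2 UMI 43, and leaving out 1 library 56 to 158. Against 34 calls in the class test, the fit with no replicate block gave 15, the wider comparison cells 170, these with core members 89, and leaving out 1 library 4 to 160. Direction turned for Csf1r (0.13), Itgb2 (0.0147), Tnfrsf1b (0.17) and Bcl2a1b (0.39) with cells thinned to 2000 UMIs, and for Lyz2 in members with no Mki67, Top2a, Mpo or Flt3 UMI (0.42) and in the main deposited cluster (0.57). Values that had not passed turned too, as for H2-Aa (-0.37) and H2-Ab1 (-1.27) in the main deposited cluster, Cd74 (0.47) with the covariate and Ccr2 (-0.28) at 5 marker UMIs. The cause was not tested. No paired analysis was possible because the sample numbers follow accession order and pair no mice. Both the title code as a covariate and the XA samples alone leave WT1 as the only wild type library in the comparison. Depth limits the core members and genes of few UMIs.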
